A study of Mus musculus with 4 samples.

Results

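Binding of JunB, BATF and IRF4 was examined around 5 genes that encode transcription factors of other T-cell programs, Tbx21, Gata3, Rora, Eomes and Runx3, in activated regulatory T (Treg) cells. A peak, a stretch of genome where chromatin immunoprecipitation-sequencing (ChIP-seq) recovered more DNA fragments than in its surroundings, was counted for a gene when its centre lay within 100 kb of any annotated transcription start site (TSS) of that gene. This rule gave 149 of the 103355 peaks in the 4 lists, namely 43 of 29659 JunB peaks, 18 of 13570 BATF peaks, 42 of 31093 IRF4 peaks in Junb-sufficient cells and 46 of 29033 IRF4 peaks in Junb-deficient cells. The comparison asked where the 3 factors share sites at these loci, and which IRF4 sites were listed with and without JunB.

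CD4+CD25+ Treg cells from spleens of C57BL/6 mice received antibodies to CD3 and CD28 together with IL-2 for 60 h, and all 4 libraries came from cells treated in this way. Junb-sufficient cells gave a JunB, a BATF and an IRF4 library and Junb-deficient cells gave an IRF4 library, with 1 library per condition. In the study's text the Junb-sufficient mice are Junb fl/fl, and the Junb-deficient mice carry Cd4-Cre in addition. The sample labels give Foxp3cre JUNB+/+ and Foxp3cre JUNBFl/Fl. Cd4-Cre deletes in T cells generally and a Foxp3-driven Cre in Foxp3-expressing cells, so the deletion in the surrounding T cells differs between these descriptions. The age of the mice and whether animals were pooled were not given in the labels. In Junb-sufficient cells the antibody field of the labels has IRF4 for the library titled BATF and the reverse, and the titles were followed. JunB was not immunoprecipitated from Junb-deficient cells, so the lists hold no check of the deletion.

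JunB and BATF are basic leucine zipper proteins of the AP-1 family and bind DNA as pairs. IRF4, an interferon regulatory factor, binds weakly by itself and joins such pairs at composite elements (AICE) that place an IRF half-site beside an AP-1 site. The 5 genes encode factors known for other lineages: T-bet (Tbx21) directs Th1 cells, GATA3 directs Th2 cells, RORα (Rora) takes part in Th17 cells and innate lymphoid cells, Eomes directs cytotoxic and memory T cells, and Runx3 shapes the CD8+ lineage and works with T-bet. Several of them are also used by Treg cells in tissues.

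The JunB peaks that carry most of the results below are printed here from the mm9 genome, plus strand, in lower case. For each gene the JunB peak nearest the head of its list among those shared by all 3 factors in Junb-sufficient cells is shown. A further peak at Gata3 was shared by all 3 factors but had no IRF4 peak in Junb-deficient cells, and it was chosen after its values were seen. The last line shows the surroundings of the only AICE match inside a peak at the 5 loci. Capitals mark an AP-1 match (TGANTCA, read on either strand, of which TGACTCA is the strict form), an IRF element (GAAANNGAAA), an ETS-IRF element (GGAANNGAAA) or, in the last line, an AICE match, which contains an AP-1 match.
Tbx21, chr11:96988225-96988375: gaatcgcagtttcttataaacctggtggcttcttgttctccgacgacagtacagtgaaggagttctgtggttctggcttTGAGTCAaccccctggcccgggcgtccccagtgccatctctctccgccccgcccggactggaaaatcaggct
Gata3, chr2:9788809-9788959: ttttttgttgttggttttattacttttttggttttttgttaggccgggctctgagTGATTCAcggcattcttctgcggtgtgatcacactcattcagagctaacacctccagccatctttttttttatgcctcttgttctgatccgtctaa
Gata3, no IRF4 peak in Junb-deficient cells, chr2:9724674-9724824: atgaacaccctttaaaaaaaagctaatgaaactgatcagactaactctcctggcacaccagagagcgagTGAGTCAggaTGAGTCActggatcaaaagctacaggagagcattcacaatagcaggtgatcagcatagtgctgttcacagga
Rora, chr9:69197040-69197190: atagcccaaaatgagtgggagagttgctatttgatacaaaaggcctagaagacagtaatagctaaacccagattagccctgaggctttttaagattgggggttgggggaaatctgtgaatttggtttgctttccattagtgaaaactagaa
Eomes, chr9:118360164-118360314: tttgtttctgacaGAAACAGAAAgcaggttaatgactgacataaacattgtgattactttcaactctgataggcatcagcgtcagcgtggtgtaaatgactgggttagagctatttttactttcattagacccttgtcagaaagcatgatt
Runx3, chr4:134759313-134759463: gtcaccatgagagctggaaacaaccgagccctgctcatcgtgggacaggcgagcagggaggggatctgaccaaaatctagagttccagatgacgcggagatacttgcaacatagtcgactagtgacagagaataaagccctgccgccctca
Runx3, AICE match, chr4:134670246-134670346: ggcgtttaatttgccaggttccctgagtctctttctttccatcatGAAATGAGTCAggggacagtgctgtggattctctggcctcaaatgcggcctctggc

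All 5 loci held peaks in each of the 4 lists. Rora held 50 peaks, Runx3 32, Gata3 25, Tbx21 22 and Eomes 20. The Rora window was the widest, 553 kb against 200 to 234 kb at the other loci, because its start sites are spread over a long gene. Per 100 kb of window, Runx3 was the densest with 13.7 peaks and Rora the sparsest with 9.04, with Gata3 at 11.6, Tbx21 at 11 and Eomes at 9.97. Among all 22225 protein-coding genes the median was 12 peaks in the 4 lists. Genes with at least as many peaks made up 0.738% for Rora, 6.60% for Runx3, 15.6% for Gata3, 22.1% for Tbx21 and 27.4% for Eomes. These shares are of counts, not of counts per 100 kb. JunB peaks outnumbered BATF peaks at every locus, from 5 against 4 at Tbx21 to 16 against 3 at Rora. Over all peaks within 100 kb of a protein-coding TSS they did so too, 23025 against 11799. JunB peaks were called from 10 tags and BATF peaks from 19. Most peaks stood away from exons. Of the JunB peaks, 28 of 43 were in introns and 15 of 43 were intergenic. The windows also reach neighbouring genes, and the nearest protein-coding TSS belonged to the named gene for 31 of 43 JunB peaks, 14 of 18 BATF peaks, 32 of 42 Junb-sufficient IRF4 peaks and 32 of 46 Junb-deficient IRF4 peaks.

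**Figure D1:**
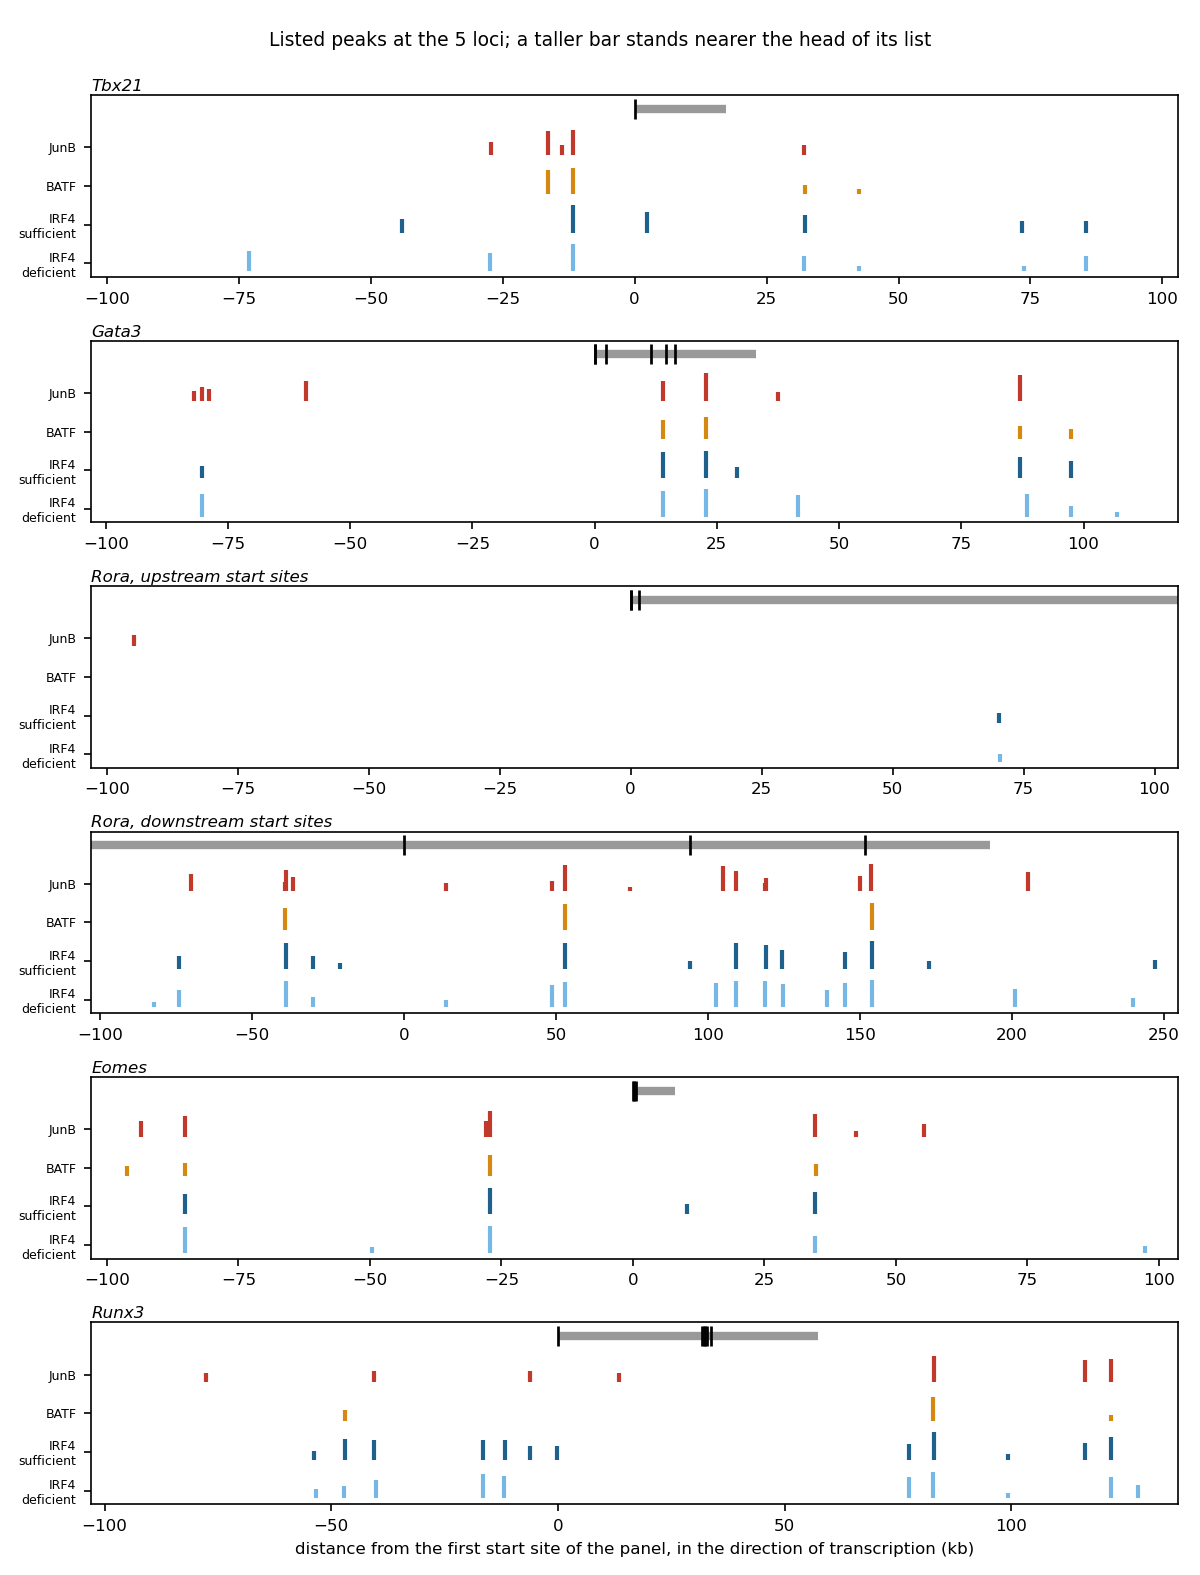
Peaks at the 5 loci by distance (kb) from the first start site of each panel in the direction of transcription, with the JunB, BATF and IRF4 lists of Junb-sufficient cells and the IRF4 list of Junb-deficient cells in separate rows. Grey bars are the genes, black ticks their start sites, and a taller bar stands nearer the head of its list; sites of all 3 factors with an IRF4 peak in both genotypes occur at each of the 5 genes.

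Overlapping peaks of the 4 lists merged into 78 sites. The most frequent kind was a JunB peak alone, at 18 sites. IRF4 in both genotypes without JunB or BATF accounted for 12 sites, and all 4 lists together for 12. A Junb-deficient IRF4 peak that overlapped none of the other lists accounted for 12. These kinds of site were not counted over all peaks. Sites of all 4 lists were found at every gene, 2 at Tbx21, 2 at Gata3, 3 at Rora, 3 at Eomes and 2 at Runx3. Of the 43 JunB peaks, 14 overlapped both a BATF and a Junb-sufficient IRF4 peak by at least 1 bp, which is 32.6% (exact binomial 95% interval 19.1 to 48.5). Over all JunB peaks within 100 kb of a protein-coding TSS the share was 33.5%, so the share at the 5 loci was near the background. Another 22 of 43 JunB peaks (51.2%) overlapped neither, against 48.9% over all. BATF peaks were seldom found without the other factors. Of 18 BATF peaks, 14 overlapped JunB (77.8%, against 70.3% over all), 15 overlapped IRF4 in Junb-sufficient cells (83.3%, against 88.7%) and 15 overlapped IRF4 in Junb-deficient cells (83.3%, against 75.0%). These intervals cover counting error over peaks only, and with 1 library per condition no test between genotypes was possible.

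At Tbx21, the leading site lay 11.6 kb upstream of the TSS in intergenic sequence. The IRF4 peak there (96987988 to 96988600 of chromosome 11) stood at place 536 of 31093 in Junb-sufficient cells and at place 445 of 29033 in Junb-deficient cells. JunB stood at place 3662 and BATF at place 1109 of their lists. The JunB peak, printed above, held 1 AP-1 match. A second JunB and BATF site lay 16.5 kb upstream, at 16.8% of the JunB list and 18.8% of the BATF list, and no IRF4 peak overlapped it in either genotype. A site of all 3 factors 32.2 kb downstream, nearest to Osbpl7, stood at 43.8% of the IRF4 list in Junb-sufficient cells and at 52.9% in Junb-deficient cells. Of the 6 Junb-sufficient IRF4 peaks at Tbx21, 4 were kept and 2 were missing, where missing means that no Junb-deficient IRF4 peak overlapped. Neither missing peak overlapped JunB. The missing peak nearest the TSS, 2.3 kb downstream in an intron of Tbx21, stood at 29.7% of its list, and 15.6% of all IRF4 peaks off JunB at like places (10 equal bins of the list) were missing. In the other direction, an IRF4 peak of Junb-deficient cells alone lay on a JunB peak 27.5 kb upstream of Tbx21, within Tbkbp1, at 41.3% of its list. In that bin, 10.1% of all Junb-deficient IRF4 peaks at JunB had no Junb-sufficient counterpart.

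At Gata3, JunB, BATF and IRF4 shared an intronic site 6.4 kb downstream of the nearest TSS. IRF4 stood there at 5.10% of the Junb-sufficient list and at 1.67% of the Junb-deficient list, with JunB at 2.61% and BATF at 21.8%. This JunB peak held an AP-1 match with T in the middle and no strict AP-1 match. A neighbouring site of all 3 factors, 0.6 kb upstream of a TSS of a processed transcript inside the gene, was also listed in both genotypes, at 6.93% and 9.30% of the IRF4 lists. The third site of all 3 factors, 70.6 kb downstream in intergenic sequence, was the only one of the 5 loci without an IRF4 peak in Junb-deficient cells. IRF4 (9724409 to 9725021 of chromosome 2) stood at 28.7% of its list and JunB at 9.41%, and the JunB peak printed above held 2 AP-1 matches. Of all IRF4 peaks at JunB in the same bin of the list, 22.7% were missing. The Junb-deficient list had an IRF4 peak close by, from 9722886 to 9723490, whose centre lay 1527 bp from that of the missing peak and which stood at 23.3% of its list. No JunB or BATF peak overlapped this neighbour. An intronic IRF4 peak 12.8 kb downstream of the nearest TSS was missing too, at 74.5% of its list. The largest upward move of any kept peak was in an intron of the neighbouring gene Taf3, 80.4 kb upstream of Gata3, where IRF4 on a JunB peak went from 69.7% of the Junb-sufficient list to 21.6% of the Junb-deficient list. Of all kept pairs, 1.10% moved as far in that direction. This share and the like shares at the genes below are over every kept pair. They include pairs listed too near the head or the foot of the list to move as far. Another 3 JunB peaks in Taf3 introns had no BATF or IRF4 peak.

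At Rora, the leading site was the highest-listed of the 5 loci in Junb-deficient cells. It lay in an intron 2.1 kb downstream of the most downstream TSS, and IRF4 (69196872 to 69197484 of chromosome 9) stood at place 300 of 31093 in Junb-sufficient and place 101 of 29033 in Junb-deficient cells. JunB stood at 2.63% and BATF at 3.35% of their lists, and the JunB peak printed above held no AP-1, IRF or AICE match. Further sites of all 3 factors, 41.3 kb and 38.8 kb upstream of other start sites, stood at 9.21% and 9.66% of the IRF4 list in Junb-sufficient cells and at 12.0% and 7.84% in Junb-deficient cells. A pair of JunB and IRF4 sites without BATF, 15.1 kb and 24.9 kb downstream of a TSS, were likewise kept, and went from 7.14% to 4.73% and from 18.4% to 7.78% of the IRF4 lists. None of the 5 IRF4 peaks at JunB was missing at Rora. The 4 missing peaks were all off JunB and stood between 80.5% and 94.3% of their list. Among them was the peak that covers the TSS at position 69137489, of a protein-coding transcript that starts inside the gene, at 86.0%. Rora held 7 of the 16 IRF4 peaks listed in Junb-deficient cells alone. The highest of these stood at 13.3% of its list, 8.4 kb downstream of a TSS and off JunB, and another lay on a JunB peak 45.6 kb upstream at 23.1%. In that bin of the list, 7.10% of all Junb-deficient IRF4 peaks at JunB had no Junb-sufficient counterpart. Another on JunB stood at 88.6%, 13.9 kb downstream of a TSS, in a bin where this share was 14.3%.

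At Eomes, no peak of any list lay nearer than 9.6 kb to a TSS, and the 3 sites of all 3 factors were distal. The leading site, 27.1 kb upstream in intergenic sequence, stood at 7.36% of the Junb-sufficient and 4.11% of the Junb-deficient IRF4 list, with JunB at 9.96% and BATF at 30.3%. Its JunB peak held an IRF element and no AP-1 match. The other sites moved further and in opposite directions. The site 85.1 kb upstream went from 30.8% to 8.95% of the IRF4 lists, and 10.8% of all kept pairs rose as far. The site 34.0 kb downstream, in an intron of Golga4, went from 25.3% to 49.2%, and 12.0% of all kept pairs fell as far. The 1 missing IRF4 peak lay 9.6 kb downstream, off JunB, at 76.9% of its list. JunB was listed alone at 4 sites of Eomes, as at Gata3.

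At Runx3, IRF4 peaks were more frequent than JunB peaks, 12 against 7, which was so at no other locus but Tbx21, where there were 6 against 5. Over all peaks within 100 kb of a protein-coding TSS, Junb-sufficient IRF4 peaks also outnumbered JunB peaks, 27572 against 23025. The leading site, 49.0 kb downstream of the nearest TSS in intergenic sequence, had the highest-listed IRF4 peak of Junb-sufficient cells at the 5 loci, at place 291 of 31093. It was kept, at place 1346 of 29033, with JunB at 4.89% and BATF at 16.8%, and the JunB peak printed above held no match to the elements marked there. A second site of all 3 factors, 88.2 kb downstream in an intron of Clic4, stood at 21.8% and 29.7% of the IRF4 lists. Runx3 held 2 of the 3 missing IRF4 peaks that overlapped JunB, both without BATF. The first lay 6.1 kb upstream of the distal TSS (134670146 to 134670758 of chromosome 4) at 59.5% of its list, where 39.6% of all IRF4 peaks at JunB in the same bin were missing. It contained the AICE match printed above, 156 bp from its centre and outside the JunB peak. The second lay 82.5 kb downstream in an intron of Clic4, at 49.3%, where 37.6% of those in the same bin were missing. The peak that covers the distal TSS of Runx3 was also missing, at 61.8%, and did not overlap JunB. A kept peak 46.9 kb upstream, shared with BATF but not JunB, went from 31.1% to 68.2% of the lists, and 5.05% of all kept pairs fell as far. The IRF4 peaks of this pair overlapped only in part, and the Junb-deficient peak was centred 47.3 kb upstream. The kept pair 40.6 kb upstream also overlapped only in part. Its Junb-deficient peak, centred 40.1 kb upstream, did not overlap the JunB peak that the Junb-sufficient peak overlapped. Runx3 had only 1 IRF4 peak in Junb-deficient cells alone, 94.2 kb downstream within Clic4.

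**Figure D2:**
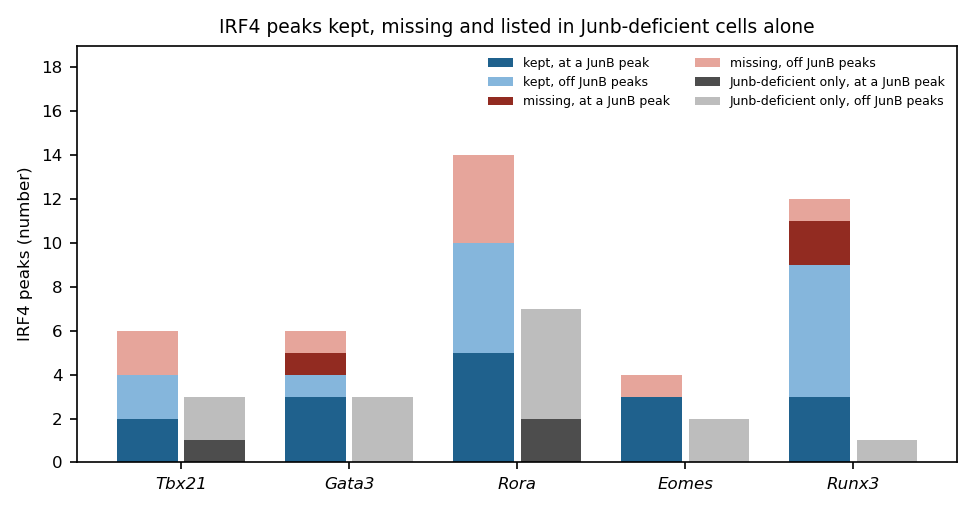
Number of IRF4 peaks at each gene: left bars, Junb-sufficient peaks that were kept or missing in Junb-deficient cells, divided by overlap with JunB; right bars, peaks of Junb-deficient cells alone. Missing peaks at JunB occur at Gata3 (1) and Runx3 (2), and Rora has the most peaks of Junb-deficient cells alone (7).

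Over the 5 loci, 30 of the 42 Junb-sufficient IRF4 peaks were kept and 12 were missing (28.6%, 95% interval 15.7 to 44.6). Over all IRF4 peaks near protein-coding genes 34.6% were missing, so the 5 loci lay near the background. The missing peaks numbered 2 of 6 at Tbx21, 2 of 6 at Gata3, 4 of 14 at Rora, 1 of 4 at Eomes and 3 of 12 at Runx3. Where IRF4 overlapped JunB, 3 of 19 were missing (15.8%, 3.38 to 39.6), against 23.7% over all. Off JunB, 9 of 23 were missing (39.1%, 19.7 to 61.5), against 41.8%. Divided further, 1 of 13 peaks at both JunB and BATF was missing (7.69%, against 16.3% over all), 2 of 6 at JunB without BATF (33.3%, against 41.9%) and 0 of 2 at BATF without JunB (against 25.2%). All these background shares lay within the intervals of the 5 loci.

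IRF4 peaks of Junb-deficient cells alone numbered 16 of 46 (34.8%, 21.4 to 50.2), against 30.3% over all. They were spread over the genes as 3 at Tbx21, 3 at Gata3, 7 at Rora, 2 at Eomes and 1 at Runx3. Of the 18 Junb-deficient IRF4 peaks at a place that JunB occupied in Junb-sufficient cells, 3 had no Junb-sufficient counterpart (16.7%, 3.58 to 41.4), against 7.55% over all. These were the peaks at Tbx21 and Rora described above, and none of the 3 overlapped BATF.

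**Figure D3:**
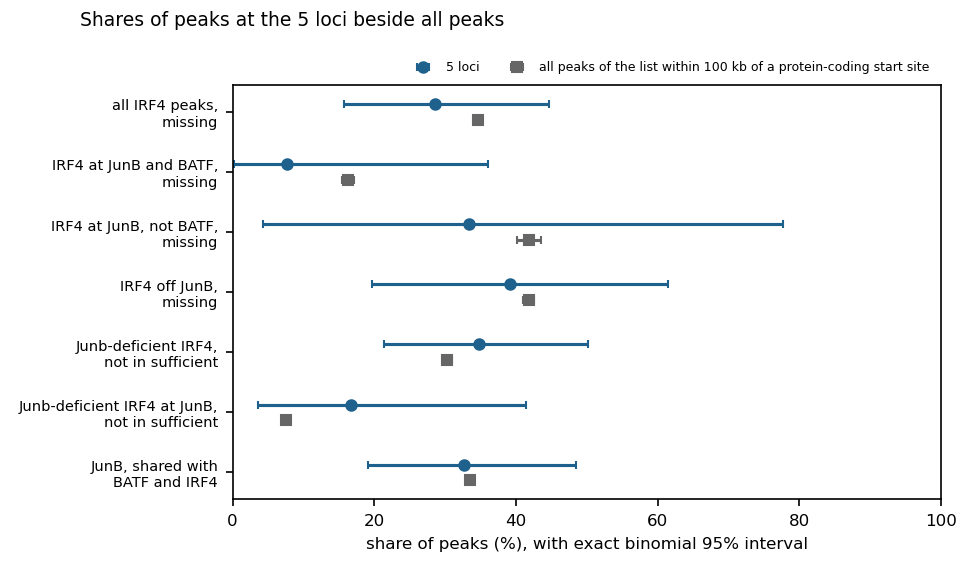
Shares of peaks (%) at the 5 loci (circles) and over all peaks of the same list within 100 kb of a protein-coding start site (squares), with exact binomial 95% intervals that cover counting error over peaks. In each of the 7 rows the interval of the 5 loci holds the share over all peaks.

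Close to the start sites the numbers were small. Within 10 kb of a TSS of the 5 genes, 5 of 9 Junb-sufficient IRF4 peaks were missing (55.6%, 21.2 to 86.3), against 32.4% of all IRF4 peaks within 10 kb of a protein-coding TSS. They were the intronic peak of Tbx21, the peak at the Rora TSS, the Eomes peak 9.6 kb downstream and the Runx3 peaks at and 6.1 kb upstream of the distal TSS. The 4 that were kept were the Gata3 sites at 6.4 kb downstream and 0.6 kb upstream, and the Rora sites at 2.1 kb downstream and 6.6 kb upstream. In Junb-deficient cells, 1 of 5 IRF4 peaks within 10 kb had no Junb-sufficient counterpart (20.0%, against 30.9%). Of 4 Junb-sufficient IRF4 peaks that covered a protein-coding TSS of any gene in the windows, 2 were missing, those of Rora and Runx3, against 22.5% over all, while those of Scrn2 and Mrpl10 in the Tbx21 window were kept.

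The lists give no height per peak, and the score is 1 for every peak, so the place in the list was the only other readout. The headers do not name the order, and the lists hold long runs of peaks in order of position, up to 1.35% of an IRF4 list and 3.81% of the JunB list. Differences in place below the longest IRF4 run were therefore not counted as moves. Runs were shorter near the head, with 4 peaks at the leading Rora site in each IRF4 list. Missing peaks stood lower in the list than kept peaks at the 5 loci, with medians of 68.1% and 33.9%. The corresponding medians over all peaks were 70.7% and 38.7%. In the first 50% of the list, 2 of 17 peaks at JunB and 1 of 7 off JunB were missing at the 5 loci, and the shares over all were 17.5% and 20.4%. In the remaining 50%, 1 of 2 at JunB and 8 of 16 off JunB were missing, against 50.1% and 50.8% over all. The 19 peaks at JunB were mostly in the first 50% of the list (17) and the 23 off JunB mostly in the remainder (16), so JunB overlap and place moved together.

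Of the 30 kept peaks, 28 differed in place between the IRF4 lists by more than 1.35% of the list, and the other two, the leading sites of Tbx21 and Rora, did not. Of these 28, 15 stood higher in the Junb-deficient list (53.6%, 33.9 to 72.5), against 48.8% of all 16198 such pairs. At JunB, 7 of 14 stood higher (95% interval 23.0 to 77.0%), against 37.5% over all. Off JunB, 8 of 14 did (57.1%, 28.9 to 82.3), against 57.6%. The shares over all pairs lay within the intervals of the 5 loci. By gene, 1 of 3 stood higher at Tbx21, 2 of 4 at Gata3, 6 of 9 at Rora, 2 of 3 at Eomes and 4 of 9 at Runx3. The 9 kept peaks in the first 10% of the Junb-sufficient list include the leading site of every gene. The lowest of the 9 stood at 12.0% of the Junb-deficient list. Of all 2559 kept peaks in the first 10%, 72.6% stood within that limit. The limit was taken from these 9 peaks, so all of them meet it by definition and the shares cannot be compared.

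**Figure D4:**
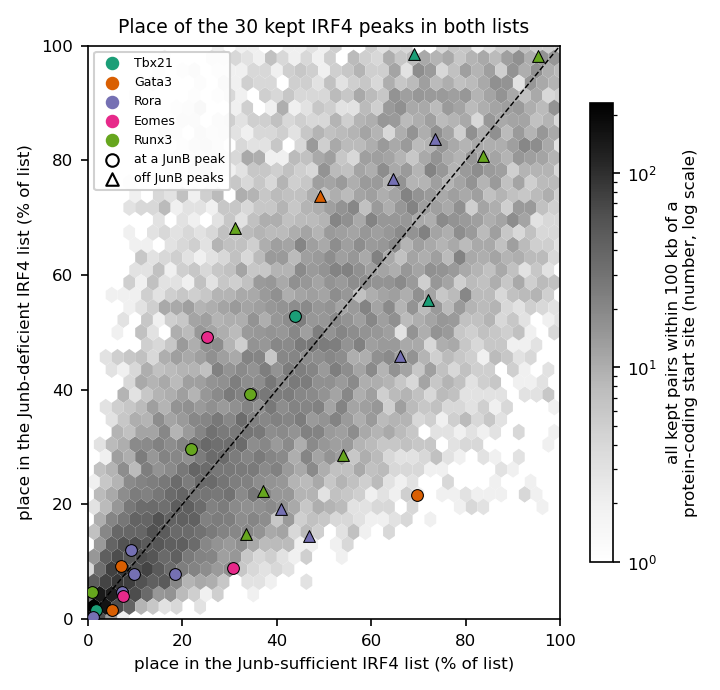
Place (% of list, 0 at the head) of the 30 kept IRF4 peaks in the Junb-sufficient (x axis) and Junb-deficient (y axis) lists, coloured by gene, with circles at JunB peaks and triangles off them, over all kept pairs near protein-coding start sites in grey (log scale). The 9 points nearest the lower left corner include the leading site of each gene, and the Gata3 point at 69.7% and 21.6% lies farthest below the dashed line of equal place.

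Sequence matches were counted within 100 bp of each peak centre, on both strands. Among the 14 JunB peaks shared by all 3 factors, 5 held a strict AP-1 match (35.7%, 12.8 to 64.9), against 42.2% over all such peaks, and 6 held TGANTCA (42.9%), against 50.3%. None of the 14 held an AICE match (TTTC, any 4 bases and TGANTCA, or GAAA directly before TGANTCA), against 5.51% over all, and 0 of 14 has an interval of 0 to 23.2. Over whole IRF4 peaks, 1 of 12 missing held an AICE match (8.33%, 0.211 to 38.5), against 3.11% over all. Of the kept, 0 of 30 did, against 3.32%. Among IRF4 peaks, strict AP-1 matches were found in 6 of 30 kept (20.0%, against 22.7% over all), in 3 of 12 missing (25.0%, against 32.1%) and in 0 of 16 of Junb-deficient cells alone (against 6.92%). An IRF element was found in 2 of the 14 JunB peaks shared by all 3 factors (14.3%, against 9.01% over all), and in 1 of the 14 over the deposited peaks alone (7.14%, against 7.43%). Among IRF4 peaks it was found in 2 of 30 kept (6.67%, against 10.7%), 0 of 12 missing (against 5.97%) and 2 of 16 of Junb-deficient cells alone (12.5%, against 12.4%). RUNX matches (TGTGGTT), the element that Runx3 and its relatives recognise, were found in 7 of 30 kept IRF4 peaks (23.3%, 9.93 to 42.3), against 12.1% over all, and in 2 of 12 missing peaks (16.7%, against 8.61%). They were found in 1 of 14 JunB peaks shared by all 3 factors (7.14%, against 12.1%) and in 1 of 16 IRF4 peaks of Junb-deficient cells alone (6.25%, against 12.4%). The 1 shared JunB peak with a RUNX match was the leading one at Tbx21, where it lies a few bases before the AP-1 match in the sequence printed above. The kept IRF4 peak at that site is among the 7 of 30.

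Other lineage factors were counted in the same way. The windows of Bcl6 (follicular helper cells), Stat4 and Stat6 (signalling from IL-12 and IL-4), Hlx and Zbtb7b (ThPOK, the CD4+ lineage) held 109 peaks, from 2 at Hlx to 47 at Stat4. There 17 of 39 Junb-sufficient IRF4 peaks were missing (43.6%, 27.8 to 60.4), and 5 of 16 at JunB (31.2%, 11.0 to 58.7). Both intervals overlap those of Tbx21, Gata3, Rora, Eomes and Runx3 together. The kept IRF4 peaks numbered 3 of 7 at Bcl6, 10 of 15 at Stat4, 0 of 3 at Stat6, 0 of 2 at Hlx and 9 of 12 at Zbtb7b. JunB peaks overlapped both other factors in 13 of 22 cases (59.1%, 36.4 to 79.3), against 33.5% of all JunB peaks, which lies outside this interval, and against the 14 of 43 given above, whose interval overlaps it. None of the 7 IRF4 peaks of Junb-deficient cells alone in the windows of these comparison genes lay on JunB.

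The protein-coding genes most like each of the 5 were found by the sum of absolute differences over 6 counts (the 4 lists, JunB peaks shared by all 3 factors, and missing IRF4 peaks). For Tbx21 this was Hspa4l, with the same 6 counts, for Gata3 Adcy3, Gm11081 and Scd4 (sum of 1 each), for Eomes Krcc1, with the same 6 counts, and for Runx3 Naa15 (1). Rora had no close match, and the nearest were Prkcq (5), Cd247 (7) and Adamtsl4 (8). The labelled cell type could be checked against binding only, not expression. All 8 T and Treg cell markers had peaks within 100 kb (19 to 72 peaks, median 27), and so did all 8 B cell and myeloid markers (6 to 45, median 21).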

How the data were processed

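The data were deposited peak lists from ChIP-seq of activated mouse Treg cells, with 1 library for each of 4 conditions. Reads had been mapped to mm9 with Bowtie2 by the authors, who called peaks with HOMER (version 4.8 per the submitters' processing notes) in each library alone, without a control in the recorded command, at a false discovery rate of 0.001, 4-fold over the surrounding 10 kb and at most 1 tag per bp. Tags used were 16.0 to 17.9 M (M, mega) per library, of 21.1 to 27.4 M in total. The local filter removed 5.25% of candidate JunB peaks and 36.2 to 37.4% in the other libraries. JunB peaks are 151 bp wide, the others 605 or 613 bp. The deposited score is 1 for every peak and was not used.

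Peak centres were compared with TSSs of GENCODE genes on NCBIM37, the same assembly as mm9, in Python 3.11.15 with NumPy 2.4.6, SciPy 1.17.1 and matplotlib 3.10.9. Peaks were shared at 1 bp of overlap. No test was made, and exact binomial 95% intervals cover counting error over peaks only. The procedures were tested on simulated data. The genes, lists and alternatives were chosen with earlier results of these data known. Peaks named in the text were those at or nearest a TSS, the highest-listed per gene, those missing or gained at JunB, and those with an AICE match. Other named peaks and the background share within 10 kb of a TSS were chosen after their values were seen. A gene of the planned list of other lineage factors is not reported here.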

Additional observations from a re-analysis of the deposited data

How the results depend on the processing

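With 1 list per condition, shares could not be set against a spread between libraries, and the lists hold no measure of peak strength, since their order is not documented. No paired analysis was possible because each condition had 1 library. The share of IRF4 peaks missing at JunB stayed inside its interval under all 16 alternatives, from 7.14% to 27.8%. The shares of all missing IRF4 peaks, of IRF4 peaks of Junb-deficient cells alone and of JunB peaks shared by all 3 factors moved outside theirs under some settings. Under a limit of 100 bp between peak centres, missing IRF4 peaks rose to 47.6% and those of Junb-deficient cells alone to 52.2%. Shares over all peaks were not counted under this limit, nor for JunB peaks within 10 kb or for the exchange of lists below. Those values therefore cannot be set against a background. Within 10 kb of a TSS, missing peaks were 55.6%, peaks of Junb-deficient cells alone 20.0% and JunB peaks shared by all 3 factors 60.0%, over 5 to 9 peaks each. With the BATF and IRF4 lists exchanged, 67.4% of Junb-deficient IRF4 peaks had no counterpart, against 34.8%, and missing peaks fell from 28.6% to 16.7%. The exchanged list is shorter, 13570 against 31093 peaks, and is titled for another factor, and these could not be told apart. When only IRF4 peaks of Junb-sufficient cells in the first 50% of their list were counted, which was chosen after seeing the data, 12.5% were missing. Leaving out any gene kept all 4 shares inside their intervals, but the share missing at JunB fell from 15.8% to 7.14% without Runx3. At single genes, missing shares ranged from 0 to 100%, and these extremes were reached only where few peaks were left. The Runx3 share also depended on the overlap rule, with all 12 peaks still counted. There, missing peaks rose from 3 of 12 to 7 of 12 with centres within 100 bp (58.3%, outside the interval of 5.49 to 57.2). They rose to 6 of 12 when at least 50% of the narrower peak had to overlap. Strict AP-1 and AICE shares kept within their intervals over whole peaks and, for IRF4 peaks at JunB, around JunB centres, as did AP-1 shares with any middle base, which was added after seeing the data. The RUNX share in IRF4 peaks of Junb-deficient cells alone did not. It went from 6.25% (0.158 to 30.2) to 31.2% (11.0 to 58.7) over whole peaks. Over all such peaks near protein-coding genes the share went from 12.4% to 21.2%, which lies inside the latter interval.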
